A study of Mus musculus with 117 samples.

Results

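The 7 genes described here code for the core of the PML nuclear body and for histone chaperones that work at that body or at the replication fork: Pml, Sp100, Daxx, Atrx, Morc3, Chaf1a and Chaf1b. They were found by symbol and Entrez identifier in a table of RNA counts over 26301 mouse genes, in which each has 1 row. RNA was measured in 28 libraries of 10 groups, in a study of Ubc9 depletion in fibroblasts, reprogramming cells and pluripotent cells. Mouse embryonic fibroblasts (MEF, E13.5, passage 1) carried a control hairpin (shCtrl, 3 libraries) or a hairpin against Ubc9 (shUbc9, 2 libraries). The same hairpins were used in passage 1 MEF with 4 days (D4, 3 and 3 libraries) or 7 days (D7, 3 and 3 libraries) of OKSM, a set of transcription factors that reprograms fibroblasts (Oct4, Klf4, Sox2, c-Myc). They were also used in induced pluripotent cells made from MEF (iPS, 2 shCtrl and 3 shUbc9 libraries, passage not given). Embryonic stem cells (ES, passages 15 to 20) received a control or an Ubc9 small interfering RNA (siCtrl and siUbc9, 3 and 3 libraries). OKSM is named for both the control and the depleted groups at D4 and D7, and for no MEF or ES group. Total RNA of whole cultures was read, so fewer cells of a type and less RNA per cell cannot be told apart.

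Ubc9 is the E2 enzyme through which the small protein SUMO is attached to its targets. PML is the scaffold of the nuclear body named after it: SUMO on PML and SUMO-binding motifs in PML and its partners hold the body together. Pml and Sp100 are genes that interferon induces. Daxx and Atrx form a complex that deposits the histone variant H3.3 at repeats and telomeres, Morc3 is an ATPase found at PML bodies, and Chaf1a and Chaf1b are subunits of CAF-1, which places histones on newly copied DNA and is known as a barrier to reprogramming.

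The stretch before the start of 4 genes is shown because the genes of each pair moved in the same direction: Chaf1a and Chaf1b between MEF, D4, D7 and iPS controls, and Pml and Sp100 after depletion at D4 and D7. Each sequence is the 250 bases before the first start in RefSeq, build GRCm38.p6, read 5′ to 3′ on the strand of the gene. The positions are chr17:56040166-56040415 (plus strand) for Chaf1a, chr16:93883651-93883900 (plus strand) for Chaf1b, chr9:58249787-58250036 (minus strand) for Pml and chr1:85649738-85649987 (plus strand) for Sp100. Capitals mark the single match to the motifs searched, an E2F site in Chaf1a.
Chaf1a: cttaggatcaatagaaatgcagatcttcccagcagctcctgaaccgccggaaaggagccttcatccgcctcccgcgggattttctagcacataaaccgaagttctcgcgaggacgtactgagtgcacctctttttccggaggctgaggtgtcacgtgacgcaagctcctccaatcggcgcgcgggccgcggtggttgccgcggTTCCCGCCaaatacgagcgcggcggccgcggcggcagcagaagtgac
Chaf1b: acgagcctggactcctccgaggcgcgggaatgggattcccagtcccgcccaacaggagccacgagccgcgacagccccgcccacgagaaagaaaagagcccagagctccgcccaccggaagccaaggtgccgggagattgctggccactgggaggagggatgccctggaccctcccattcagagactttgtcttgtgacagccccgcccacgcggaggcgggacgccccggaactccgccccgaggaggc
Pml: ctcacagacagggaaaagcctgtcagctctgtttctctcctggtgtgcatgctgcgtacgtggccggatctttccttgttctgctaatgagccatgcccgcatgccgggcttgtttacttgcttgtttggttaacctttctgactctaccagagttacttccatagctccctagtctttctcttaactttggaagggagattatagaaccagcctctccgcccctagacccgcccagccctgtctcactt
Sp100: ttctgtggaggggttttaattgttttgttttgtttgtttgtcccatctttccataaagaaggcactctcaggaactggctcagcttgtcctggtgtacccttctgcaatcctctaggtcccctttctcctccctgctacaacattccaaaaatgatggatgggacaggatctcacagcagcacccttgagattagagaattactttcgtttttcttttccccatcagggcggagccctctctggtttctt
The 7 genes have 10 such windows, since Sp100 has 2 starts and Daxx has 3. They were searched on both strands for the interferon element (TTTC, any 2 bases, TTTC) and for the E2F sites TTTCGCGC, TTTGGCGC and TTCCCGCC. The interferon element was in 0 of the 10 windows, beside 2.98% of 32851 windows over all genes and 7 of the 22 interferon-induced genes with a window. Chaf1a alone held an E2F site, on the plus strand 47 to 40 bases before the start, beside 2.48% of all windows and 7 of 26 DNA replication genes. A match is a string of letters and no match says only that the string is not in this window. The share of G and C was 61.2% in the window of Chaf1a and 68.4% in that of Chaf1b, with 28 and 21 CG pairs. It was 51.6% for Pml and 46.0% for Sp100, with 7 and 2 CG pairs, both below the median of 52.4% over all windows. Morc3 and Chaf1b are neighbours among the protein-coding genes of chromosome 16, on the same strand, and Sp100 lies next to the related gene Sp140 on chromosome 1.

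Total gene counts ran from 11365908 to 58779915 per library. No label tells whether replicates are separate cultures, so each p-value reflects the spread among these libraries alone, which may be technical. The smallest library, iPS shUbc9 replicate 2, stood apart: its log2 levels correlated over genes with those of the other libraries of its group at 0.896 and 0.908, where the other pair gave 0.980. In it 10.8% of 14387 genes were more than 4-fold below the mean of that pair and 0.702% more than 4-fold above it. The summed level of 10 fibroblast markers was 24861 to 55690 counts per 1000000 (CPM) in the MEF, D4 and D7 controls and 808 to 2277 CPM in the ES and iPS controls, and the pluripotent markers Sall4, Lin28a, Dppa4 and Fgf4 were at 0 in MEF shCtrl. Every adjusted p given here is from edgeR's quasi-likelihood test with Benjamini-Hochberg adjustment, unless DESeq2 is named.

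Levels across the 10 groups are given as CPM on a scaling shared by all 28 libraries, as mean ± SD, and are compared within a gene only, since no gene lengths were used. Pml was highest in ES siCtrl (251 ± 28.8), followed by iPS shCtrl (215 ± 45.4), D4 shCtrl (200.7 ± 25.02), ES siUbc9 (198 ± 9.26) and the iPS libraries labelled shUbc9 (196 ± 103). Then came D7 shCtrl (149.6 ± 14.5), MEF shUbc9 (145 ± 6.87), D4 shUbc9 (138 ± 7.08) and MEF shCtrl (130.1 ± 15.5). Each of these groups overlapped the next in the range of its libraries. D7 shUbc9, at 91.7 ± 5.06, lay below them all without overlap.

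Sp100, a chromatin-binding component of the bodies, had the widest range of the 7 genes. It was at 49.0 ± 10.2 in MEF shUbc9, 41.2 ± 6.58 in MEF shCtrl, 39.6 ± 3.72 in D4 shCtrl, 32.5 ± 7.67 in D7 shCtrl, 22.9 ± 5.63 in D4 shUbc9 and 17.6 ± 4.14 in D7 shUbc9, with overlap between neighbours. After a gap came iPS shCtrl at 1.29 ± 1.09 and the iPS libraries labelled shUbc9 at 0.454 ± 0.107. After another gap came ES siUbc9 at 0.0896 ± 0.0429 and ES siCtrl at 0.0459 ± 0.0135. The ES values rest on very few reads, 2, 3 and 2 in the siCtrl libraries and 2, 7 and 2 in the siUbc9 libraries. Sp100 has near-identical copies in the mouse genome, and how reads that map to several places were counted is not given, so its counts are uncertain.

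Daxx and Atrx are partners in 1 complex, and their orders of groups differed. Daxx was at 163 ± 33.4 in the iPS libraries labelled shUbc9, 149 ± 55.5 in iPS shCtrl, 127 ± 5.46 in ES siCtrl, 125 ± 5.43 in MEF shUbc9, 119 ± 0.667 in ES siUbc9 and 112 ± 6.33 in MEF shCtrl. Below a gap lay D4 shCtrl (78.0 ± 7.58), D7 shCtrl (61.6 ± 10.3), D4 shUbc9 (58.6 ± 2.24) and D7 shUbc9 (53.0 ± 4.27), which overlapped in a chain. Daxx was thus lower in the cells with 4 or 7 days of OKSM than in either end state.

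Atrx was lowest in MEF, at 255 ± 16.8 in shCtrl and 262 ± 12.4 in shUbc9. Above a gap came D7 shCtrl (322 ± 13.3), D4 shCtrl (331 ± 9.96), D7 shUbc9 (341 ± 28.8), D4 shUbc9 (368 ± 15.2) and iPS shCtrl (401 ± 104), which overlapped in a chain. ES siUbc9 and siCtrl were at 584 ± 7.19 and 642 ± 19.4. The 3 iPS libraries labelled shUbc9 held 994, 22.6 and 753 CPM, the low one being the library that stood apart, so their mean of 590.0 ± 506 describes none of them. In that library 0.0904% of genes were as far below the other pair as Atrx was.

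Morc3 was at 74.5 ± 5.64 (D7 shCtrl), 81.4 ± 2.20 (MEF shCtrl), 83.0 ± 0.309 (MEF shUbc9), 83.7 ± 3.81 (D4 shCtrl), 92.97 ± 10.7 (D7 shUbc9) and 102 ± 4.77 (D4 shUbc9). It was at 239.7 ± 32.1 in iPS shCtrl, 282 ± 6.45 in ES siUbc9 and 307 ± 25.8 in ES siCtrl. In the iPS libraries labelled shUbc9 it was at 270.3, 49.1 and 266 CPM, and the same library was the low one.

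The CAF-1 subunits shared most of their order. Chaf1a was at 37.3 ± 2.44 and 37.8 ± 1.56 in MEF shUbc9 and shCtrl, 48.4 ± 1.10 and 51.2 ± 4.37 in D7 shCtrl and shUbc9, and 57.4 ± 2.67 and 65.3 ± 2.80 in D4 shUbc9 and shCtrl. It reached 146 ± 2.21 and 148 ± 4.45 in ES siUbc9 and siCtrl, and 166 ± 38.6 and 172 ± 30.6 in iPS shCtrl and the iPS libraries labelled shUbc9, 4 groups that overlapped in a chain. Chaf1b was at 17.2 ± 1.14 and 17.4 ± 0.490 in MEF shCtrl and shUbc9, 21.5 ± 1.89 in D7 shCtrl, and 27.1 ± 2.51, 30.7 ± 2.72 and 32.4 ± 1.31 in D7 shUbc9, D4 shCtrl and D4 shUbc9. It was at 61.4 ± 1.42 in ES siUbc9 and 75.1 ± 3.18 in ES siCtrl, with no overlap. The iPS groups, at 156 ± 34.7 and 174 ± 42.4, lay above all ES libraries for Chaf1b but not for Chaf1a.

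**Figure D1:**
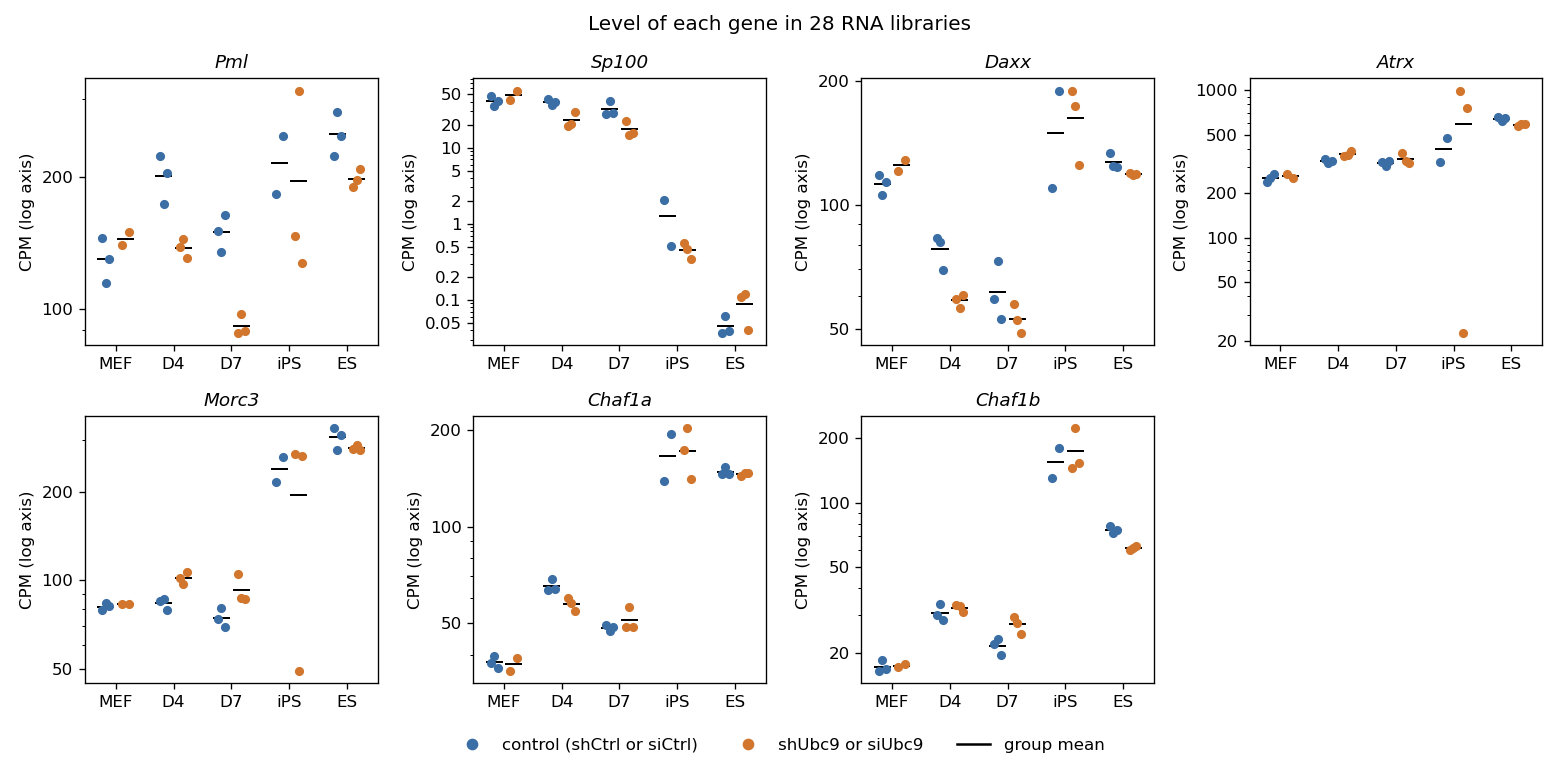
CPM of each gene on a log axis (scaling over 28 libraries), by cell state, with 1 point per library, controls in blue, shUbc9 or siUbc9 in orange and group means as black lines. Mean Sp100 runs from 49.0 CPM in MEF shUbc9 to 0.0459 CPM in ES siCtrl, Chaf1a and Chaf1b are lowest in MEF, and 1 iPS library labelled shUbc9 is low for Atrx (22.6 CPM) and Morc3 (49.1 CPM).

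The control groups show how the 7 genes differ between cell states with Ubc9 left in place. The values in this and the next paragraphs are CPM scaled within each comparison, so they differ slightly from those above. These comparisons share control groups with each other and with the depletion comparisons. ES controls received a control small interfering RNA at passages 15 to 20, and the other controls a control hairpin. In comparisons with ES controls, cell state, means of delivery and passage therefore cannot be told apart. Between ES siCtrl and MEF shCtrl all 7 genes passed the test, where 90.5% of all genes tested did: 6 were higher in ES cells, beside 47.7% of all genes, and 1 lower, beside 42.8%. The groups of all 7 did not overlap, nor did those of 90.9% of all genes. Chaf1b was 15.9, 17.5 and 16.1 CPM in the MEF libraries and 77.1, 71.0 and 74.0 in the ES libraries, a rise of 2.16 ± 0.07 on the log2 scale (± SE, adjusted p = 5.78e-11). Chaf1a rose by 2.02 ± 0.06 (adjusted p = 2.7e-11), from 36.2 ± 1.11 to 146 ± 4.46 CPM. Both subunits were thus about equally higher in ES cells, with no overlap between the groups.

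Morc3 rose by 1.96 ± 0.07 on the log2 scale from MEF to ES cells (78.0 ± 1.29 to 303 ± 25.1 CPM, adjusted p = 1.53e-10). Atrx rose by 1.37 ± 0.06 (245 ± 16.0 to 633 ± 18.6 CPM, adjusted p = 1.89e-09) and Pml by 0.99 ± 0.10 (125 ± 16.3 to 247 ± 28.7 CPM, adjusted p = 2.96e-06). Daxx rose by only 0.22 ± 0.06 (108 ± 7.39 to 125 ± 5.10 CPM, adjusted p = 0.00761). Leaving out MEF shCtrl replicate 2 ended the Daxx call (0.11, adjusted p = 0.0945), as did the fits over 28 libraries (0.17, adjusted p = 0.321) and 27 libraries (0.23, adjusted p = 0.165). Sp100 went the other way: MEF shCtrl held 5146 of its reads and ES siCtrl 7, a ratio of levels of 889.9 with a 95% interval from counting error alone of 432 to 2215.

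From MEF to D4, 5 of the 7 genes changed, where 66.7% of all genes did: 4 rose, beside 33.3%, and 1 fell, beside 33.5%. The groups of these 5 did not overlap, beside 70.5% of all genes. Pml was 138, 107 and 124 CPM in MEF shCtrl and 210.2, 162 and 193 in D4 shCtrl, a rise of 0.61 ± 0.11 on the log2 scale (adjusted p = 0.000674). Chaf1a rose by 0.78 ± 0.05 (35.7 ± 1.17 to 61.2 ± 2.16 CPM, adjusted p = 1.15e-06) and Chaf1b by 0.82 ± 0.08 (16.3 ± 0.932 to 28.8 ± 2.32 CPM, adjusted p = 1.2e-05). Atrx rose by 0.36 ± 0.06 (adjusted p = 0.000438), which the fit over 28 libraries did not call (0.37, adjusted p = 0.643). Daxx fell by 0.54 on the log2 scale (SE 0.08, 106 ± 6.82 to 73.1 ± 6.82 CPM, adjusted p = 0.000146), its groups not overlapping. Sp100 (difference −0.07 ± 0.12, adjusted p = 0.609) and Morc3 (0.03 ± 0.05, adjusted p = 0.655) did not pass.

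From D4 to D7, 3 of the 7 genes fell, where 7.65% of all genes did, and 0 rose, where 10.6% did. The groups of the 3 did not overlap, beside 37.2% of all genes. Chaf1a was 59.6, 64.4 and 60.4 CPM in D4 shCtrl and 46.5, 44.6 and 46.0 in D7 shCtrl, and fell by 0.43 on the log2 scale (SE 0.06, adjusted p = 0.00215). Chaf1b fell by 0.50 (SE 0.09, 28.9 ± 2.53 to 20.3 ± 1.76 CPM, adjusted p = 0.00902). Pml fell by 0.42 (SE 0.11, 189 ± 23.6 to 141 ± 13.9 CPM, adjusted p = 0.0297), and this call was lost in 4 of the 6 fits that left out 1 library (adjusted p up to 0.112) and in the fit over 28 libraries (adjusted p = 0.37). The CAF-1 subunits therefore moved up from MEF to D4 and down again by D7, and their D7 controls lay above all MEF libraries. Without D7 shCtrl replicate 2, Sp100 (−0.49, adjusted p = 0.0106) and Daxx (−0.47, adjusted p = 0.0133) also passed, as did Daxx by DESeq2 (−0.35, adjusted p = 0.0498).

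From D7 to iPS controls, 6 of the 7 genes changed, where 73.8% of all genes did: 5 rose, beside 36.2%, and 1 fell, beside 37.6%. The groups of these 6 did not overlap, beside 83.0% of all genes. Chaf1b rose by 2.84 ± 0.17 on the log2 scale (21.1 ± 1.79 to 151 ± 32.0 CPM, n = 3 and 2, adjusted p = 1.41e-05 by edgeR). Chaf1a rose by 1.77 ± 0.16, Morc3 by 1.67 ± 0.14, Daxx by 1.26 ± 0.24 and Pml by 0.51 ± 0.16 (adjusted p = 7.42e-05, 4.75e-05, 0.00281 and 0.0262). Sp100 held 3049 reads in D7 shCtrl and 82 in iPS shCtrl, a ratio of levels of 28.5 (95% counting interval 22.9 to 36.0). The iPS libraries held 2.01 and 0.50 CPM, a spread that this interval does not cover. The fitted log2 difference of −4.73 became −5.98 without iPS shCtrl replicate 1 and −4.00 without replicate 3, both called. Atrx did not pass (0.30 ± 0.17, adjusted p = 0.154). The Pml call was lost without D7 shCtrl replicate 1, D7 shCtrl replicate 2 or iPS shCtrl replicate 3 (adjusted p = 0.0884, 0.0869 and 0.0891) and in the fit over 28 libraries (0.0513). Atrx passed without iPS shCtrl replicate 1 (0.54, adjusted p = 0.00277), with library sizes alone (0.54, adjusted p = 0.0134) and in the fit over 27 libraries (0.38, adjusted p = 0.00455).

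The pluripotent controls differed from each other at 4 of the 7 genes, where 53.3% of all genes were called: 2 were higher in iPS, beside 27.3%, and 2 lower, beside 26.0%. The groups of these 4 did not overlap, beside 71.2% of all genes. Chaf1b was 82.3, 78.6 and 80.2 CPM in ES siCtrl and 136 and 180.5 in iPS shCtrl, higher in iPS by 0.98 ± 0.14 on the log2 scale (adjusted p = 0.00178). Atrx was lower in iPS by 0.75 (687 ± 9.60 against 408 ± 95.6 CPM, adjusted p = 0.00777; 28 libraries in 1 fit, adjusted p = 0.386). Morc3 was 329 ± 21.8 CPM in ES and 244 ± 26.2 CPM in iPS (log2 difference −0.43 ± 0.12, adjusted p = 0.024), a call lost without ES siCtrl replicate 1 or replicate 3 (adjusted p = 0.11 and 0.124) and in the fit over 28 libraries (0.415). Sp100 held 82 reads in iPS shCtrl (60 in replicate 1 and 22 in replicate 3) against 7 in ES siCtrl, a ratio of levels of 25.2 (95% counting interval 11.7 to 64.5). The fitted log2 difference of 4.64 became 3.35 without iPS shCtrl replicate 1 and 5.41 without replicate 3, both called. Chaf1a did not pass (0.09 ± 0.15, adjusted p = 0.626), so the CAF-1 subunits did not share this difference on the test. Without iPS shCtrl replicate 1, Chaf1a (0.29, adjusted p = 0.0183) and Daxx (0.48, adjusted p = 0.00154) passed as well, and without replicate 3 Pml did (−0.46, adjusted p = 0.0299).

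**Figure D2:**
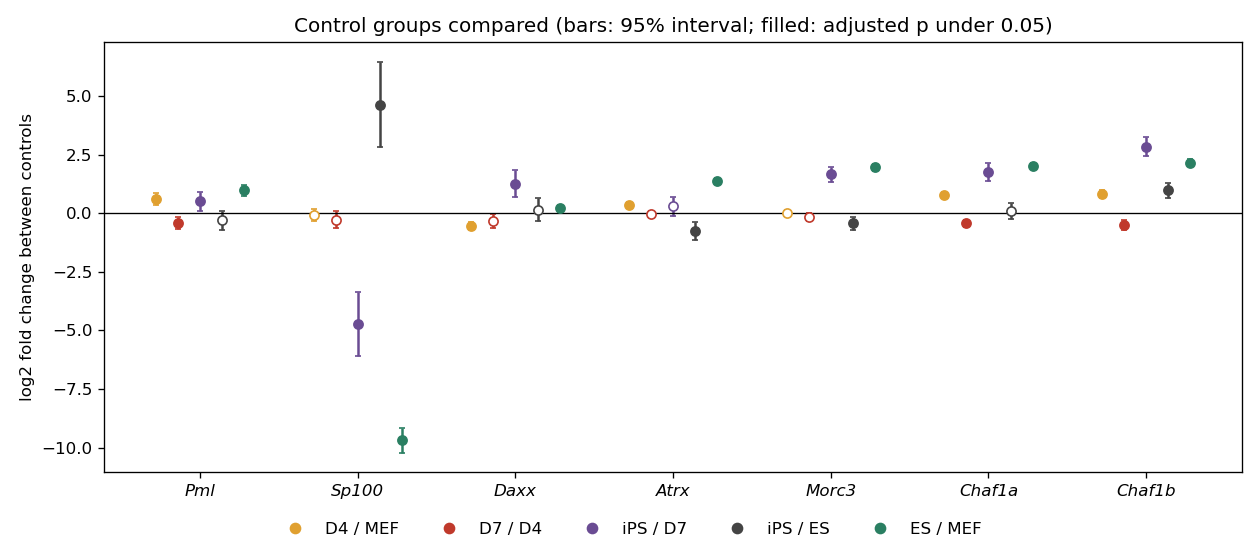
Fitted log2 fold change of each gene in 5 comparisons of control groups, with bars for the 95% interval and filled points for an adjusted p under 0.05. Chaf1a and Chaf1b are higher at D4 than in MEF (0.78 and 0.82), lower at D7 than at D4 (−0.43 and −0.50), and higher in iPS than at D7 (1.77 and 2.84), while Sp100 is far lower in ES and iPS cells.

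In MEF, depletion of Ubc9 changed 0 of the 7 genes, where 6.04% of all genes were called by edgeR, 3.83% higher and 2.21% lower. DESeq2 also called 0, and 1 of the 7 had an unadjusted p under 0.05. That gene was Daxx, at 109, 95.002 and 104 CPM in shCtrl and 110.1 and 116 in shUbc9 (0.14 ± 0.06 on the log2 scale, adjusted p = 0.224). Daxx was also the 1 of 7 whose groups did not overlap, beside 38.2% of all genes. Pml was 134, 103 and 119 CPM in shCtrl and 127 and 135 in shUbc9 (0.14 ± 0.09, adjusted p = 0.404), and Sp100 was 44.0, 31.2 and 37.5 against 38.05 and 50.6 CPM (0.24 ± 0.14, adjusted p = 0.378). The 95% intervals of the differences ran from −0.06 to 0.35 for Pml and from −0.08 to 0.56 for Sp100. Atrx, Morc3, Chaf1a and Chaf1b differed by −0.03 to 0.03 on the log2 scale. In the same libraries 8 of 10 macrophage and leukocyte markers rose (summed level 133 to 192 CPM in shCtrl and 293 to 302 in shUbc9). The part of this in the values of the 7 genes was not tested.

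At D4, 5 of the 7 genes changed, where 53.2% of all genes did: 4 fell, beside 26.1% of all genes, and 1 rose, beside 27.2%. Pml was 222, 173 and 205 CPM in shCtrl and 138, 146 and 129.5 in shUbc9. All 3 depleted libraries lay below all 3 controls, and Pml fell by 0.54 on the log2 scale (SE 0.09, 199.9 ± 24.9 to 138 ± 8.16 CPM, adjusted p = 0.00121). Sp100 was 43.1, 35.8 and 39.6 CPM in shCtrl and 18.8, 20.4 and 29.0 in shUbc9. It fell by 0.80 (SE 0.15, adjusted p = 0.00192), and its groups did not overlap either.

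Daxx, the adaptor that PML bodies hold, was 82.7, 80.9 and 69.3 CPM in D4 shCtrl and 58.6, 56.5 and 60.0 in shUbc9. It fell by 0.41 on the log2 scale (SE 0.08, adjusted p = 0.00183). Its partner Atrx was 338, 318 and 333 CPM against 353, 364 and 381, higher in all 3 depleted libraries but not past the threshold (0.15 ± 0.06, adjusted p = 0.072). Morc3 was 84.4, 86.2 and 79.4 CPM in shCtrl and 101, 97.7 and 106 in shUbc9, and rose by 0.28 ± 0.06 (adjusted p = 0.00417). It was the 1 member that rose, and its groups did not overlap.

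Chaf1a at D4 was 62.9, 68.1 and 64.2 CPM in shCtrl and 59.3, 58.1 and 54.0 in shUbc9, and fell by 0.19 (SE 0.06, adjusted p = 0.0342). This call was lost in 5 of the 6 fits that left out 1 library, all but the one without D4 shCtrl replicate 1, with adjusted p from 0.0422 to 0.0903 over the 6, and also with library sizes alone (0.332), with no filter on low counts (0.0818) and in the fits over 28 libraries (0.296) and 27 libraries (0.218). Chaf1b was 29.7, 33.5 and 28.5 CPM against 33.0, 33.2 and 30.6 (0.08 ± 0.08, adjusted p = 0.446), its groups overlapping. In all, the groups of 6 of the 7 genes did not overlap, beside 61.9% of all genes. In the fit over all 28 libraries at once 1 of the 7 was called at D4, Sp100, beside 20.7% of all genes (Pml −0.54, adjusted p = 0.0779, Daxx −0.41, adjusted p = 0.0728, and Morc3 0.28, adjusted p = 0.58). In the fit over 27 libraries Daxx was not called (−0.39, adjusted p = 0.0536).

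At D7, 4 of the 7 genes changed, where 53.6% of all genes did: 2 fell, beside 26.3%, and 2 rose, beside 27.3%. Pml was 148, 133 and 162 CPM in shCtrl and 86.9, 95.8 and 89.8 in shUbc9, and fell by 0.70 on the log2 scale (SE 0.08, 148 ± 14.6 to 90.8 ± 4.53 CPM, adjusted p = 0.000174). Sp100 was 27.2, 40.8 and 28.3 CPM in shCtrl and 22.0, 14.5 and 15.7 in shUbc9, and fell by 0.88 (SE 0.20, adjusted p = 0.00516). In both genes the depleted libraries lay below all controls. The calls of Pml and Sp100 at D4 and D7 held when any 1 library was left out.

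Morc3 at D7 was 72.5, 79.6 and 68.8 CPM in shCtrl and 104, 85.5 and 87.0 in shUbc9, a rise of 0.32 ± 0.09 (adjusted p = 0.0192). Chaf1b was 21.7, 22.9 and 19.3 CPM in shCtrl and 29.0, 27.03 and 24.6 in shUbc9, a rise of 0.33 ± 0.10 (adjusted p = 0.0217). The groups of both did not overlap, which with Pml and Sp100 makes 4 of the 7, beside 61.1% of all genes. Both calls were lost without D7 shCtrl replicate 1 (adjusted p = 0.0852 for Morc3 and 0.0795 for Chaf1b) or D7 shCtrl replicate 3 (0.0577 and 0.0629), and that of Chaf1b also without D7 shUbc9 replicate 1 (0.0585). The fit over 28 libraries called neither (0.499 and 0.0773).

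Daxx at D7 was 58.1, 72.1 and 52.3 CPM in shCtrl and 56.5, 51.7 and 49.1 in shUbc9, which overlap (−0.22 ± 0.12, adjusted p = 0.152). It passed without D7 shCtrl replicate 3 (−0.32, adjusted p = 0.0419). Atrx was 320.4, 304 and 330.1 CPM against 368, 323 and 322 (0.09 ± 0.08, adjusted p = 0.360), and Chaf1a 48.6, 46.6 and 48.1 against 47.9, 55.2 and 48.8 (0.08 ± 0.08, adjusted p = 0.395). With library sizes alone as the scaling, which moved the median of all genes at D7 to 0.21, Atrx (0.30, adjusted p = 0.00972) and Chaf1a (0.29, adjusted p = 0.0247) passed too.

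In ES cells 2 of the 6 genes tested fell, where 17.8% of all genes fell and 39.1% changed. Chaf1b was 79.1, 75.5 and 77.1 CPM in siCtrl and 67.9, 65.9 and 67.9 in siUbc9, and fell by 0.20 on the log2 scale (SE 0.04, adjusted p = 0.00552), with no overlap. Pml was 225.4, 294 and 255 CPM in siCtrl and 214, 211 and 224.7 in siUbc9, and fell by 0.25 (SE 0.09, adjusted p = 0.0491). Its groups were separated by less than 1 CPM, and the call was lost in 5 of the 6 fits that left out 1 library, all but the one without ES siCtrl replicate 1 (adjusted p from 0.00329 to 0.143 over the 6). The groups of these 2 of the 6 did not overlap, beside 51.1% of all genes. In the fit over all 28 libraries 0 of the 6 were called (Chaf1b −0.29, adjusted p = 0.189, and Pml −0.34, adjusted p = 0.362).

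The other ES values lay close together. Daxx differed by −0.01 ± 0.05, Morc3 by −0.03 ± 0.06, Atrx by −0.05 ± 0.05 and Chaf1a by 0.06 ± 0.05 on the log2 scale (adjusted p = 0.898, 0.719, 0.523 and 0.343). The lowest bound of their 95% intervals was −0.17 and the highest 0.17. Sp100 had too few reads to be tested in ES cells.

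In iPS cells 0 of the 7 genes were called between the libraries labelled shUbc9 and shCtrl, and 0 of 17294 genes in all, so the background is 0%. The groups of 0 of the 7 did not overlap, beside 12.5% of all genes. At an unadjusted p under 0.05 there were 0 of the 7 and 246 of all genes, and DESeq2 called 0 of the 7 and 7 of all genes. Pml was 199 and 253 CPM in shCtrl and 153, 324 and 133 in the libraries labelled shUbc9. Atrx was 355 and 487 CPM against 1036, 23.2 and 788, and Morc3 235 and 269 against 282, 50.5 and 278. The second value of each labelled group is the library that stood apart, high for Pml and low for Atrx and Morc3. Sp100 was 2.23 and 0.531 CPM in shCtrl and 0.579, 0.476 and 0.360 in the libraries labelled shUbc9.

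Daxx in iPS cells was 119 and 193 CPM in shCtrl and 197, 179 and 131 in the libraries labelled shUbc9, Chaf1a 151 and 198 against 180.1, 208 and 148, and Chaf1b 142 and 185 against 152, 229.6 and 161. Each of these groups overlapped. Without iPS shUbc9 replicate 2, Pml differed by −0.68 (adjusted p = 0.543) and Atrx by 1.09 (adjusted p = 0.305), with 0 of the 7 called. In a fit over the other 27 libraries, chosen after seeing that this library stood apart, Pml (−0.65, adjusted p = 0.00123) and Atrx (1.12, adjusted p = 9.53e-07) passed, beside 12.9% of all genes.

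**Figure D3:**
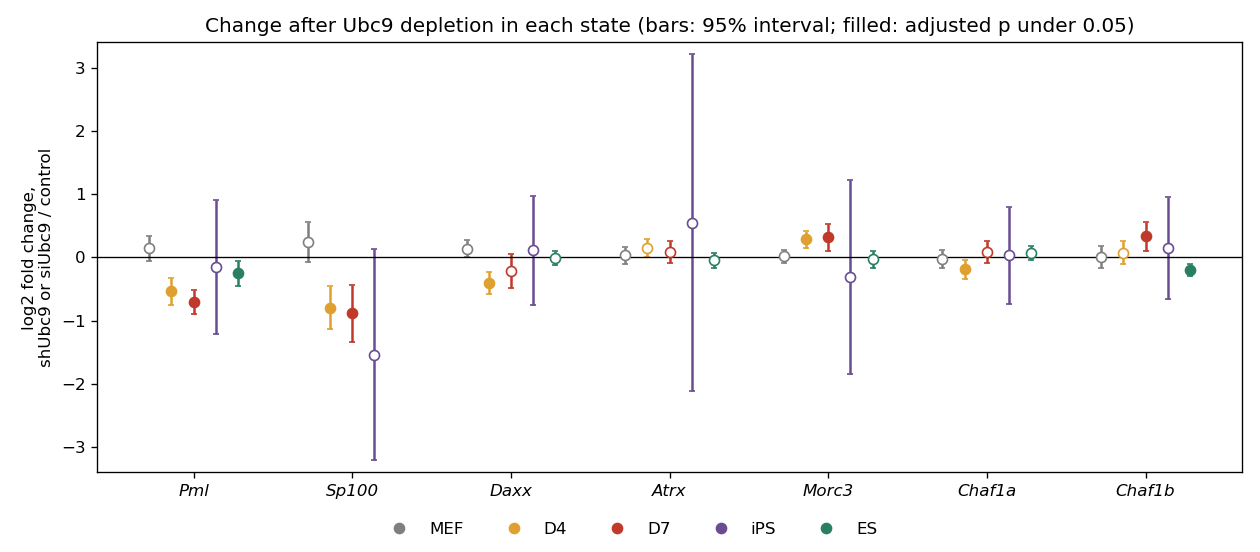
Fitted log2 fold change of each gene after Ubc9 depletion in each of the 5 cell states, with bars for the 95% interval and filled points for an adjusted p under 0.05. Pml and Sp100 lie below 0 at D4 (−0.54 and −0.80) and D7 (−0.70 and −0.88), Morc3 lies above 0 at both (0.28 and 0.32), and the iPS intervals are the widest.

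Whether a response differed between states was tested by the interaction of state and depletion. Between D4 and MEF, 4 of the 7 responses differed, beside 36.6% of all genes: 3 were lower at D4, beside 19.6%, and 1 higher, beside 17.0%. The response of Pml was lower at D4 by 0.70 on the log2 scale (SE 0.15, adjusted p = 0.00279), that of Sp100 by 1.06 (SE 0.24, adjusted p = 0.00407) and that of Daxx by 0.57 (SE 0.11, adjusted p = 0.0012). That of Morc3 was higher by 0.24 ± 0.07 (adjusted p = 0.0217), a call lost without MEF shUbc9 replicate 3 (adjusted p = 0.0563) or D4 shCtrl replicate 3 (adjusted p = 0.0548). In the fit over all 28 libraries 0 of the 4 calls held, with adjusted p of 0.165 to 0.873.

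Between D7 and D4, 0 of the 7 responses differed, beside 12.3% of all genes by edgeR, 6.04% higher and 6.24% lower. DESeq2 also called 0, and 1 of the 7 had an unadjusted p under 0.05, Chaf1a (0.29 ± 0.10, adjusted p = 0.0778). The differences for Pml and Sp100 were −0.15 (95% interval −0.44 to 0.14) and −0.07 (−0.67 to 0.52). Chaf1a passed without D7 shUbc9 replicate 1 (0.32, adjusted p = 0.0452).

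Between ES cells and D7, 3 of the 7 responses differed, beside 44.3% of all genes: 2 were lower in ES cells, beside 24.3%, and 1 higher, beside 20.1%. The ES response of Chaf1b was lower by 0.59 (SE 0.11, adjusted p = 0.000595): Chaf1b fell in ES cells and rose at D7. The response of Morc3 was lower by 0.42 (SE 0.12, adjusted p = 0.0114) and that of Pml higher by 0.39 ± 0.12 (adjusted p = 0.0191). The Morc3 call was lost without D7 shUbc9 replicate 1 (adjusted p = 0.116). The Pml call was lost without D7 shCtrl replicate 3, ES siCtrl replicate 1 or ES siUbc9 replicate 3 (adjusted p = 0.0538, 0.056 and 0.0545), and also with library sizes alone (0.22, adjusted p = 0.173) and with no filter on low counts (0.29, adjusted p = 0.0899). Those settings called Atrx instead (−0.36, adjusted p = 0.00753, and −0.30, adjusted p = 0.0376). The fit over 28 libraries called neither Pml (adjusted p = 0.433) nor Morc3 (adjusted p = 0.539). DESeq2 called Sp100 as well (1.88, adjusted p = 0.0361, against 1.79 and 0.119 by edgeR), whose ES side rests on 11 and 7 reads. ES cells received a small interfering RNA and D7 cells a hairpin, so cell state and means of depletion cannot be told apart here.

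Genes of the same pathways are given from lists that leave out the 7. The counts stand beside those over all genes, of which 27.2% rose and 26.1% fell at D4, 27.3% and 26.3% at D7, 21.3% and 17.8% in ES cells, and 3.83% and 2.21% in MEF. Of 19 other residents and regulators of PML bodies, 3 rose and 7 fell at D4, with a median log2 change of −0.14 beside −0.01 over all genes. Rb1, the retinoblastoma protein gene, rose there from 34.5 ± 2.48 to 64.0 ± 5.10 CPM (adjusted p = 3.48e-05), and Trp53inp1, a p53 target, rose by 0.40 (adjusted p = 0.00366). Sp110, a relative of Sp100, fell from 11.1 ± 1.35 to 5.39 ± 1.07 CPM (adjusted p = 0.000413), and Usp11, a deubiquitinase, fell by 0.45 (adjusted p = 0.000252). At D7, 2 rose and 10 fell, with a median of −0.32 beside 0.01 over all genes. Rb1 and the helicase gene Blm were the 2 that rose (0.68 and 0.42), and the kinase gene Hipk1 (164 ± 18.5 to 109 ± 4.35 CPM) and Usp11 fell. In MEF 0 of the 19 changed. In ES cells 6 rose and 3 fell, among them Rb1 (32.2 ± 1.05 to 58.8 ± 1.38 CPM) and Sp110 (2.77 ± 0.348 to 10.6 ± 0.898 CPM), which rose, and Hipk1, which fell by 0.56. Sp110 thus fell at D4 and rose in ES cells.

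Of 8 other genes of H3.3 deposition, 2 rose and 2 fell at D4, 2 rose and 1 fell at D7, 1 rose and 1 fell in ES cells, and 1 fell in MEF (Dek, from 91.9 ± 6.02 to 76.0 ± 4.71 CPM). The D4 shares are near those over all genes. Ubn1, a subunit of the HIRA complex that also deposits H3.3, fell at D4 from 112 ± 4.97 to 76.6 ± 4.21 CPM and at D7 from 107 ± 4.08 to 70.0 ± 5.11 CPM (adjusted p = 0.000165 and 0.000197), and rose by 0.20 in ES cells (adjusted p = 0.00744). H3f3b, a gene for H3.3 itself, rose by 0.28 at D4 and 0.22 at D7. Asf1a, a chaperone that hands on H3 and H4, rose by 0.27 at D4 and 0.31 at D7 and fell by 0.25 in ES cells.

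Of 18 other histone chaperone genes, 6 rose and 4 fell at D4, 7 rose and 3 fell at D7, 2 rose and 3 fell in ES cells, and 1 fell in MEF. The D4 shares are again near those over all genes. Nasp, a chaperone of soluble H3 and H4, rose at D7 from 56.0 ± 5.29 to 92.8 ± 7.52 CPM (adjusted p = 0.000245). Tonsl, which reads newly placed histones, fell at D4 from 26.2 ± 1.89 to 15.6 ± 1.52 CPM (adjusted p = 0.000209), and Asf1b, which hands histones to CAF-1, fell by 0.40 (adjusted p = 0.00377). In ES cells Hjurp, the chaperone of the centromeric histone, rose from 282 ± 15.9 to 418 ± 8.94 CPM (adjusted p = 6.23e-05). Of the relatives of Morc3, Morc1 rose at D4 from 0.665 ± 0.135 to 2.17 ± 0.488 CPM and at D7 from 2.79 ± 0.857 to 22.8 ± 2.36 CPM. Morc2a and Morc4 fell at both times, and in ES cells Morc4 and Morc2b rose. Of the family, Morc1 and Morc3 therefore rose at D4 and D7, while Morc2a and Morc4 fell. The response of Morc1 was larger at D7 than at D4 (by 1.36 on the log2 scale, adjusted p = 0.0214). That of Morc3 did not differ between the times on the test (0.05, adjusted p = 0.834).

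Of 30 interferon-induced genes, 22 fell and 0 rose at D4 (median −0.47), beside 26.1% of all genes that fell. At D7, 6 fell, a smaller share than the 26.3% of all genes that fell, and 0 rose, beside 27.3%. The median was −0.32, beside 0.01 over all genes. Between D7 and D4, 0 of the 30 responses differed, beside 12.3% of all genes. Stat2, a transcription factor of the interferon response, fell at D4 from 380.6 ± 15.2 to 216 ± 11.7 CPM and at D7 from 252 ± 55.9 to 147 ± 14.8 CPM (adjusted p = 2.2e-05 and 0.00222). Ddx58, a sensor of foreign RNA, fell by 0.76 at D4. The summed level of the list, on the scaling of 28 libraries, was 5219 to 6144 CPM in D4 shCtrl and 3587 to 4555 CPM in D4 shUbc9, and 2746 to 4705 against 2471 to 3187 CPM at D7, where the groups overlap. In MEF 1 of the 30 rose (Irf1, by 0.22). In ES cells 15 of 25 tested fell and 3 rose (median −0.42), and the sum was 535 to 549 CPM in siCtrl and 391 to 414 CPM in siUbc9. Irf1 fell there from 115 ± 2.71 to 51.4 ± 0.894 CPM (adjusted p = 1.9e-07), while Tap1, a peptide transporter, rose by 0.93. From MEF to D4 controls 26 of the 30 fell and 1 rose (median −0.68), while Pml rose by 0.61 and Sp100 did not pass. From MEF to ES controls 28 fell and 1 rose, and from D7 to iPS 25 fell and 1 rose. Pml rose in both (0.99 and 0.51) and Sp100 fell. Pml fell by 0.42 from D4 to D7, where 18 of the list fell and 0 rose. Between iPS and ES controls 24 were higher in iPS and 1 lower, where Sp100 was higher and Pml did not pass (−0.30). There 7 of 10 fibroblast markers were also higher in iPS and 0 lower (median 1.68). Of 7 macrophage and leukocyte markers tested, 5 were higher and 2 lower. All genes were higher in 27.3% and lower in 26.0%. The part of any of these lists in the Sp100 difference was not tested.

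Other markers moved at the same times. Of 10 fibroblast markers, 9 fell at D4 and 8 at D7, with a sum of 29161 to 42323 CPM in D4 shCtrl and 20495 to 22910 in D4 shUbc9, and of 39213 to 55690 against 18649 to 23022 CPM at D7. All 10 epithelial markers rose at D7 (sum 214 to 292 against 838 to 913 CPM), as did 9 of 10 pluripotent markers, and 8 of 10 macrophage and leukocyte markers rose at D4 (117 to 123 against 187 to 209 CPM). The groups did not overlap in any of these sums. At D7, 0 of 10 macrophage and leukocyte markers were called, and their sums overlapped (124 to 227 against 124 to 166 CPM). At D4, 4 of 9 epithelial markers tested rose and 1 fell, and 4 of 5 pluripotent markers tested rose. Of 6 endothelial markers tested, 1 rose and 1 fell at D4, and 2 rose and 2 fell at D7. The part of all these markers in the changes of Pml, Sp100, Daxx and Morc3 was not tested.

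Of 32 DNA replication genes, all rose from MEF to D4 and from MEF to ES cells in the controls, 27 fell from D4 to D7 and 31 rose from D7 to iPS, the same directions as Chaf1a and Chaf1b. Between iPS and ES controls 3 were higher in iPS and 6 lower (median −0.03). There Chaf1b was higher in iPS by 0.98 and Chaf1a did not pass. After depletion, 8 rose and 4 fell at D4, and 20 rose and 0 fell at D7 (median 0.40), where Chaf1b rose and Chaf1a did not pass. Dut, which clears dUTP, rose at D7 from 32.3 ± 2.01 to 66.1 ± 4.25 CPM, and Uhrf1, which maintains DNA methylation at the fork, rose by 0.63 (adjusted p = 1.9e-05 and 0.00016). The sum was 1860 to 2086 CPM in D7 shCtrl and 2257 to 2489 in D7 shUbc9. In ES cells 4 rose and 10 fell (median −0.07), and the sum was 7862 to 8492 CPM in siCtrl and 7438 to 7526 in siUbc9, where Chaf1b fell. In MEF 5 fell and 0 rose, among them Mcm5 (−0.29) and Tk1 (−0.33).

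**Figure D4:**
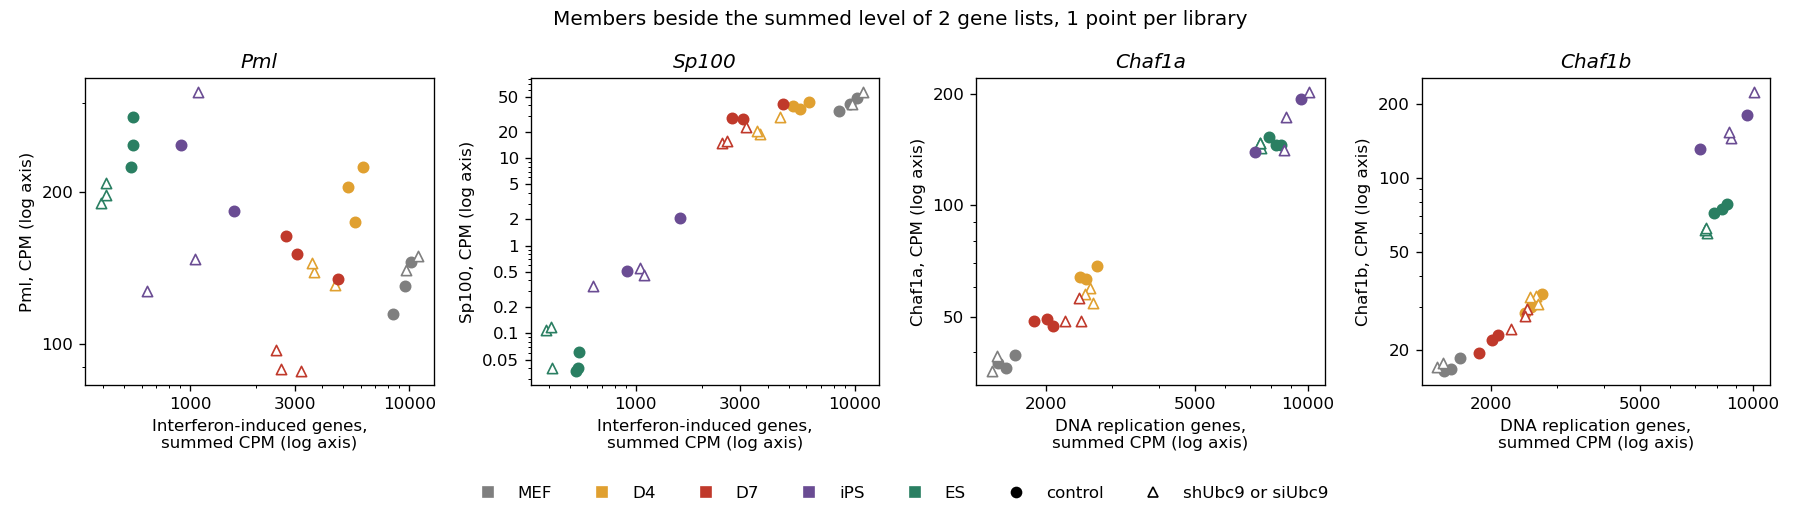
Level of Pml and Sp100 against the summed level of 30 interferon-induced genes, and of Chaf1a and Chaf1b against that of 32 DNA replication genes, in CPM on log axes (scaling over 28 libraries), with 1 point per library, colour for cell state and open triangles for shUbc9 or siUbc9. The D7 shUbc9 libraries hold the lowest Pml levels (91.7 CPM on average), while mean Pml is highest in ES siCtrl (251 CPM). Sp100 is lowest where the interferon sum is lowest (ES cells), and both CAF-1 subunits are lowest where the replication sum is lowest (MEF).

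The genes most like each of the 7 were found by Pearson's r of log2 CPM over the 10 group means among 15522 genes, as a description. The groups share libraries and depth, so no p is given. Nearest to Chaf1a were Pole, a DNA polymerase subunit on the DNA replication list (0.999), Rad51c, a recombination gene (0.999), and Plekhb1 (0.998). Nearest to Chaf1b were Naa40 (0.995), Ggt6 (0.995) and Hrob (0.994), and nearest to Morc3 was Supt16, a subunit of the chaperone FACT (0.997), then Akap8 (0.995) and Dnajc7 (0.995). Mean Ggt6 was 0 CPM in both MEF groups and at most 1.49 CPM (iPS shUbc9), so its r rests on very few reads. Sp100 was nearest to Parp3 (0.998), Cdk14 (0.997) and Gvin1 (0.997), and Daxx to Grk2 (0.979), Kcnh2 (0.976) and Dvl2 (0.975). In ES siCtrl and siUbc9, Sp100 held 7 and 11 reads and mean Gvin1 was 0 and 0.0113 CPM. The low end of both genes therefore also rests on very few reads. Pml was nearest to Sfswap (0.963), Edc3 (0.942) and Fam193b (0.939), and Atrx to Cox20 (0.987), Ccdc125 (0.984) and Cd2ap (0.982). All these r values include iPS shUbc9 replicate 2, which was low for Atrx and Morc3. The nearest genes without that library are not given, so those of Atrx and Morc3 may depend on it.

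Among the 7, r over the 10 group means was 0.956 between Chaf1a and Chaf1b, 0.895 between Morc3 and Chaf1a, and −0.959 between Sp100 and Morc3. For Pml and Sp100, which fell together at D4 and D7, it was −0.673, since Pml was high and Sp100 low in the pluripotent groups. Daxx and Atrx gave 0.0700, and 0.457 without iPS shUbc9 replicate 2. Leaving out that library also moved the value of Atrx with Chaf1b from 0.354 to 0.818.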

How the data were processed

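RNA was measured by stranded, rRNA-depleted total RNA sequencing, per the labels' protocols. The authors deposited read counts per gene and library with no normalization, as the whole numbers in the file show. Per the submitters' processing notes, STAR 2.5.0a, featureCounts and DESeq2 were used, with build mm9. Not given in the sources used here: strand setting, annotation version and treatment of reads mapping to several places. All columns were matched to labels (0 left over). Of 26301 gene identifiers, 24191 had a symbol and 2110 had none, and 799 repeat families were left out. The peak lists on mm9 were not used here.

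Each comparison was fitted in R 4.3.3 with edgeR 4.0.16 (filterByExpr with a minimum count of 10, TMM scaling, two-sided quasi-likelihood test) on the groups compared, with Benjamini-Hochberg adjustment over all genes tested and a call at an adjusted p under 0.05. Log2 CPM used a prior count of 2, and likeness was computed among genes of at least 1 CPM in a group. Ratios of Sp100 reads carry 95% intervals that cover counting error only: they leave out the spread between libraries, and reads without molecular identifiers are not independent molecules. Alternatives were RLE factors, library sizes alone, no filter, DESeq2 1.42.0, all libraries in 1 fit, a replicate block and leaving out each library. The text names all 7 genes, up to 2 called genes in each direction per pathway list and depletion with the smallest p, and the 3 genes most like each of the 7. The marker genes at 0 were chosen after their values were seen. The 7 genes and the lists were chosen with earlier results of these data known. A check on 1 other gene is not reported here.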

Additional observations from a re-analysis of the deposited data

Results flagged for a closer look

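The response to Ubc9 depletion differed between D4 and MEF by the interaction test for Pml (−0.70 on the log2 scale), Sp100 (−1.06), Daxx (−0.57) and Morc3 (0.24). It differed between ES cells and D7 for Pml (0.39), Morc3 (−0.42) and Chaf1b (−0.59). MEF shUbc9 has 2 libraries.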

How the results depend on the processing

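Of 43 called values of the 7 genes, 0 changed sign among 587 values from alternative fits, and 23 kept their call in every alternative run. A single fit gives values for several genes, so the 587 are not independent. With RLE factors 43 kept it, with DESeq2 43, with no filter 41, with library sizes alone 41, with all 28 libraries in 1 fit 23 and with 27 libraries (added after seeing the data) 34. With all 28 libraries the number called was 1 at D4, 2 at D7, 0 in ES cells, 2 between iPS and ES controls, and 0 and 1 for the D4 against MEF and ES against D7 responses. With 27 libraries it was 3 at D4, 2 in iPS cells, 0 in ES cells and 1 for the D4 against MEF response, beside 35.1%, 12.9%, 21.1% and 12.8% of all genes. Leaving out 1 library gave 2 to 4 called at D7, 1 to 2 in ES cells and 0 to 1 for the D7 against D4 response. With no library left out, 53.6%, 39.1% and 12.3% of all genes were called there. The last share was 7.73% without D7 shCtrl replicate 1, and the other shares without a library are not given. The cause of these changes was not tested. Library sizes alone moved the median of all genes to 0.21 at D7, 0.27 between ES and MEF, 0.22 between iPS and D7 and −0.20 in the ES against D7 response.

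The share of all genes called after depletion, with all 28 libraries in 1 fit, was 0.183% in MEF, 20.7% at D4, 30.3% at D7, 4.01% in iPS cells and 14.4% in ES cells. Between controls it was 34.0% from MEF to D4 and 4.85% from D4 to D7, and for the responses 3.65% (D4 against MEF), 1.72% (D7 against D4) and 23.2% (ES against D7). The share between iPS and ES controls in that fit is not given, and was 53.3% in the fit of those groups alone.

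Whether replicate numbers pair the samples was not decided. The r values used for this are not those of the libraries' log2 levels, which were 0.896 or more within groups. Same-numbered control and depleted libraries gave r of −0.02 and −0.07 in MEF and of −0.42 and −0.19 in iPS. They gave 0.04, −0.21 and −0.09 at D4, −0.06, −0.20 and −0.06 at D7, and 0.15, 0.11 and 0.02 in ES cells. Where a group has 2 libraries, as in MEF and iPS, their r values are equal with opposite sign, as departures from the mean of 2 values are. MEF shCtrl replicate 1 gave −0.02 and 0.02, so such values cannot show whether pairs exist. A replicate block kept 40 of the 43 calls. It lost Chaf1a at D4 (adjusted p = 0.0925), Pml between iPS and D7 controls (0.138) and Morc3 between iPS and ES controls (0.0918). It called 5 genes instead of 3 between D7 and D4 controls, and 1 instead of 0 in iPS cells (Atrx, 1.12, adjusted p = 0.0473), where Morc3 (0.15), Chaf1a (−0.085) and Chaf1b (−0.053) changed sign. It called 27.4% of all genes from D4 to D7, beside 18.2% without the block, and 11.5% after depletion in MEF, beside 6.04%. In iPS cells it called 0.468% of all genes, beside 0% without the block.

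Other changes of sign were in values without a call. Library sizes alone gave −0.012 for Chaf1b in MEF, −0.020 for Chaf1a in iPS cells, 0.026 for Sp100 from MEF to D4, 0.039 and 0.071 for Sp100 and Atrx in the D7 against D4 response and −0.0056 for Daxx in the ES against D7 response. All 28 libraries gave −0.025 for Chaf1a in ES cells. No filter gave −0.015 for Morc3 from MEF to D4, and 27 libraries −0.021 for the same, with 0.16 for Morc3, −0.083 for Chaf1a and −0.056 for Chaf1b in iPS cells. Leaving out 1 library in MEF gave −0.027 to 0.088 for Atrx, −0.087 to 0.028 for Chaf1a and −0.023 to 0.054 for Chaf1b. In iPS cells it gave −0.68 to 0.059 for Pml, −0.22 to 0.50 for Daxx, −0.051 to 1.09 for Atrx, −0.62 to 0.13 for Morc3, −0.18 to 0.24 for Chaf1a and −0.086 to 0.34 for Chaf1b. In ES cells it gave −0.051 to 0.0095 for Daxx and −0.086 to 0.0064 for Morc3. Between controls it gave −0.19 to 0.044 for Sp100 from MEF to D4, and −0.21 to 0.48 for Daxx and −0.095 to 0.29 for Chaf1a between ES and iPS. For the D7 against D4 response it gave −0.27 to 0.19 for Sp100, −0.11 to 0.00072 for Atrx and −0.043 to 0.16 for Morc3, and for the ES against D7 response −0.11 to 0.026 for Chaf1a. Sp100 in ES cells, at 2 to 7 reads a library, was too shallow to test.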
